A study of Mus musculus with 6 samples.

Results

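The Slc25 genes encode the mitochondrial carrier family, and the rows taken here are the 44 whose symbol is Slc25a followed by a number, of 43383 rows in the table. All 44 carry a RefSeq accession. Carriers of the same family with other symbols, such as the uncoupling proteins, are not in this set and are described separately below. RNA-seq was performed on GFP-positive astrocytes sorted from 4-week-old male Aldh1l1-eGFP mice, a line in which the promoter of the astrocyte gene Aldh1l1 drives GFP. Upper-layer astrocytes (ULAs) came from layers II–IV of the somatosensory cortex and deep-layer astrocytes (DLAs) from layers V and VI. Neither sample held layer I with its covering membranes or the white matter beneath the cortex, and the border between layers IV and V was only partly sampled. Each of 3 brains gave 1 ULA and 1 DLA library, so that 6 libraries were compared, and no group was treated.

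Mitochondrial carriers are proteins of the inner mitochondrial membrane that exchange nucleotides, phosphate, carboxylates, amino acids and cofactors between the cytosol and the matrix. ADP and ATP pass through the adenine nucleotide translocases, reducing equivalents through the malate-aspartate shuttle, and fatty acids, bound to carnitine, through the carnitine carrier. In astrocytes, which take up glutamate at synapses, part of that glutamate enters mitochondria through glutamate carriers and is oxidized there.

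Expression was given as RPKM, that is, reads scaled to the mRNA length and to the mapped reads of the library, so that levels of different genes can be compared per length. Depth was 24.4 to 26.7 M reads in the ULA libraries and 19.7 to 29.6 M in the DLA libraries, lowest in the DLAs of brain 2. The layers were compared by limma on log2(RPKM + 1), in a model of brain and layer, over the 13999 rows whose RPKM averaged 1 or more. A gene passed at a Benjamini-Hochberg adjusted p under 0.05, and the added 1 shrinks the differences of genes at low RPKM. The 8 astrocyte markers were all expressed, with summed levels of 11318 to 12269 RPKM in ULAs and 10631 to 11381 in DLAs, whereas 7 of 8 neuronal markers were under a mean of 1 RPKM. All 5 endothelial markers and both oligodendrocyte precursor markers were also under 1 RPKM. The 8 oligodendrocyte markers summed to 86.7 to 177.7 RPKM in ULAs and 176.3 to 278.7 in DLAs, and haemoglobin genes with Alas2 to 0.94 to 1.79 in ULAs and 15.4 to 76.7 in DLAs. Of the oligodendrocyte and red blood cell markers, 6 and 3 passed as lower in ULAs. The 6 microglial markers summed to 12.9 to 13.8 RPKM in ULAs and 8.58 to 11.7 in DLAs, nearly all of it P2ry12. The part of these other cells in the differences given below was not tested.

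Of the 44 Slc25 genes, 5 had a mean over 100 RPKM, 21 lay between 10 and 100, 12 between 1 and 10, and 6 were under 1 and were not tested. In the comparison of the layers 1 of the 38 tested genes passed, Slc25a45, which was higher in ULAs. Among all rows tested 1.63% passed, 0.714% as higher in ULAs and 0.914% as lower, and none of the Slc25 genes passed as lower. At an unadjusted p under 0.05 (limma), 3 of the 38 were higher in ULAs and 5 were lower, against 5.64% and 10.8% of all rows (16.4% in either direction). The median log2 difference (ULAs minus DLAs) of the 38 genes was −0.01, and that of all rows was −0.03. The difference lay within 0.3 of 0 for 34 of the 38 genes (89.5%) and for 83.8% of all rows.

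**Figure D1:**
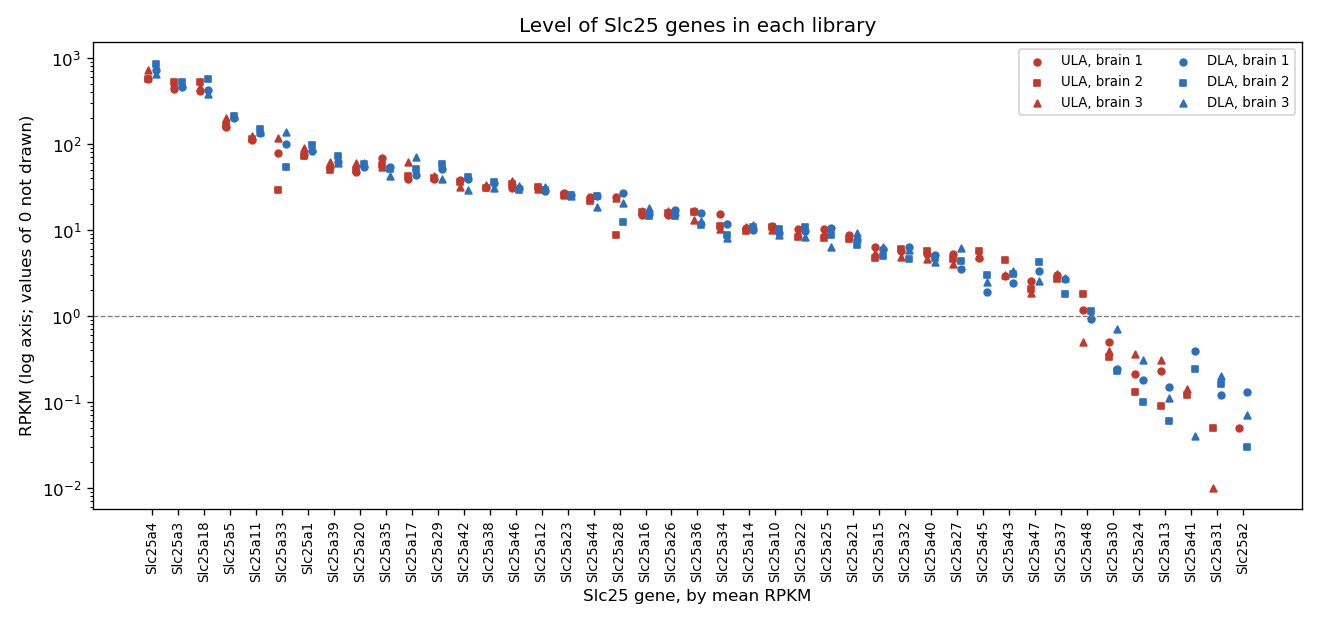
RPKM of the Slc25 genes reported by name in the 6 libraries, on a log axis, with ULAs in red, DLAs in blue, a symbol for each brain and a dashed line at 1 RPKM, the minimum mean for the test. Slc25a4, Slc25a3 and Slc25a18 lie highest, the 6 libraries of most genes fall close together, and Slc25a33 and Slc25a28 are spread between brains.

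The highest means of the family were those of Slc25a4, an adenine nucleotide carrier, the phosphate carrier Slc25a3 and the glutamate carrier Slc25a18. Slc25a4, the adenine nucleotide translocase ANT1, had RPKM values of 573.40, 570.24 and 717.94 in the ULAs, for brains 1, 2 and 3 in this order as in all such lists, and of 733.20, 862.88 and 650.50 in the DLAs. DLAs were higher in brains 1 and 2 and lower in brain 3, so that the layers overlapped, and the log2 difference of −0.27 (95% interval −0.56 to 0.02) did not pass (adjusted p = 0.345, limma). Without brain 3 the difference was −0.48 and passed (adjusted p = 0.0104), and without brain 2 it was −0.11 (adjusted p = 0.746). Slc25a5, the translocase ANT2, stood at 158.86, 166.39 and 201.26 RPKM in ULAs and at 201.68, 209.68 and 214.71 in DLAs. The lowest DLA value was just above the highest ULA value, but the log2 difference of −0.26 (interval −0.47 to −0.04) did not pass (adjusted p = 0.233). Processed copies of Slc25a5 exist in the genome, and how the authors assigned reads that fit several places is not given in the sources used here, so its level is uncertain to that extent.

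Slc25a4 exceeded Slc25a5 by a factor of 3.53 ± 0.0954 in ULAs (SD over 3 brains) and 3.59 ± 0.544 in DLAs. By these values ANT1 was the major translocase mRNA in every library, with the uncertainty in the level of Slc25a5 given above. Slc25a31, the germ cell form ANT4, was at 0, 0.05 and 0.01 RPKM in ULAs and 0.12, 0.16 and 0.20 in DLAs, which rests on at most 13 reads in a library. Slc25a3, the phosphate carrier that supplies ATP synthase, was at 434.17, 528.10 and 499.93 RPKM in ULAs and at 465.61, 529.40 and 498.84 in DLAs. These values overlapped fully, and the log2 difference was −0.03 (interval −0.23 to 0.17, adjusted p = 0.888). Together with Slc25a18 and Slc25a11, these genes made up 68.7% to 74.5% of the summed RPKM of the family. This sum was 2637 ± 193 for ULAs and 2869 ± 206 for DLAs (SD over 3 brains), and ranged from 2465 in the ULAs of brain 1 to 3106 in the DLAs of brain 2.

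Among the carriers of ATP-Mg in exchange for phosphate, most of which are regulated by calcium, Slc25a23 was the most abundant. It was at 27.22, 25.51 and 25.24 RPKM in ULAs and at 25.38, 25.19 and 24.96 in DLAs, nearly the same in all 6 libraries. Slc25a25 was lower, at 10.32, 8.14 and 9.28 RPKM in ULAs and 10.40, 8.69 and 6.40 in DLAs, with the lowest value in the DLAs of brain 3. Slc25a24 was at 0.21, 0.13 and 0.36 RPKM in ULAs and 0.18, 0.10 and 0.31 in DLAs, and Slc25a41 was at most 0.39 in any library. Slc25a42, which carries coenzyme A, averaged 35.1 ± 3.45 RPKM in ULAs and 36.6 ± 6.81 in DLAs. The folate carrier Slc25a32 and the S-adenosylmethionine carrier Slc25a26 averaged 5.53 ± 0.572 and 15.8 ± 0.933 in ULAs, against 5.65 ± 0.925 and 15.9 ± 1.28 in DLAs. Slc25a16 averaged 15.8 ± 0.865 and 15.9 ± 1.798 RPKM, and Slc25a43 3.44 ± 0.843 and 2.94 ± 0.477. Of the 17 genes grouped here as carriers of nucleotides, phosphate and cofactors, 14 were tested, 10 with a difference below 0 and 4 above 0, and 0 passed.

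Slc25a33, a carrier of pyrimidine nucleotides, differed most between brains. Its RPKM was 77.89, 29.06 and 118.02 in ULAs and 101.11, 53.33 and 138.37 in DLAs, lowest in brain 2 and highest in brain 3 in both layers. Within each brain the DLAs were higher, with a ULA/DLA ratio of 0.723 ± 0.159 (SD, n = 3), and the log2 difference of −0.48 (SE 0.13) did not pass with all brains (adjusted p = 0.1, limma). It passed without brain 3, where the difference was −0.61 (adjusted p = 0.00159), whereas without brain 2 it was −0.30 (adjusted p = 0.199). The difference between the libraries of the brains was tested by an F test in the same limma fit, a test added after these values had been seen. It cannot tell the animals apart from the handling of each brain, such as dissection, sorting and library preparation. Slc25a33 passed (adjusted p = 0.00104), as did 2.85% of all rows, and its spread between brains ranked 67 among the 13999 rows. An antisense row, ENSMUSG00000085403, shares 281 bases with Slc25a33 (14.97% of its mRNA) and was at 34.63, 12.78 and 58.82 RPKM in ULAs and 47.97, 26.07 and 70.44 in DLAs. It followed the same order of brains, and since the library kit does not mark the strand, reads in the shared bases cannot be told apart. The other pyrimidine nucleotide carrier, Slc25a36, showed no such order, at 16.80, 16.10 and 12.96 RPKM in ULAs and 15.63, 11.33 and 12.79 in DLAs.

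The promoters of 34 of the 44 genes were matched by symbol in RefSeq (GRCm38.p6), each as a window from 250 bases before to 50 bases after a start site, and 3 are shown because the results turn on these genes. Slc25a45 is the gene that passed between layers, Slc25a33 the one with the widest spread between brains, and Slc25a18 the most abundant amino acid carrier. The motifs were chosen after the values had been seen. Capitals mark the motifs searched for on both strands, which were the GC box (GGGCGG), the CCAAT box (CCAAT), the E-box (CACGTG), the TATA box (TATAAA), an ETS site (CCGGAAGT), the cyclic AMP response element (TGACGTCA), the NRF1 site and the ERR half-site (AAGGTCA). The windows lie at chr19:5877572-5877871 (plus strand), chr4:149774218-149774517 (minus strand) and chr6:120773518-120773817 (plus strand), and are written 5′ to 3′ along each gene.
Slc25a45: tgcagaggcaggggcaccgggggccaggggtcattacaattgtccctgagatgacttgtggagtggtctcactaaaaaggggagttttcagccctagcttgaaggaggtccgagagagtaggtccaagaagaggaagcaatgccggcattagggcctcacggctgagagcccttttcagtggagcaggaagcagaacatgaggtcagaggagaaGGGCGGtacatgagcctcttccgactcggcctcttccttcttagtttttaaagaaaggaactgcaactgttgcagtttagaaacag
Slc25a33: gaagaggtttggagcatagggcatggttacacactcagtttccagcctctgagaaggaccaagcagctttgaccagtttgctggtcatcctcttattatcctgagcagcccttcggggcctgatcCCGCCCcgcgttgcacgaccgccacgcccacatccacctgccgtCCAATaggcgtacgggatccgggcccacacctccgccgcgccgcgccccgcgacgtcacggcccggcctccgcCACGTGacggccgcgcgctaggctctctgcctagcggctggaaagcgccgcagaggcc
Slc25a18: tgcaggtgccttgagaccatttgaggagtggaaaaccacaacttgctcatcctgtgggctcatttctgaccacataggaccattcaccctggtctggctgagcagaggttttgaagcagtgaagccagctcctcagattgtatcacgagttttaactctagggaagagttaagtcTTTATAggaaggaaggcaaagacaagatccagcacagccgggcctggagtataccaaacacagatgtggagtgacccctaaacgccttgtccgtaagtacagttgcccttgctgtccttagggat

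The window of Slc25a45 holds 1 GC box, which begins 36 bases before the start site, and 7 CpG dinucleotides. That of Slc25a33 holds a GC box, a CCAAT box and an E-box, the last of them beginning 8 bases before the start, and 30 CpG. That of Slc25a18 holds a match to the TATA box on the opposite strand (TTTATA), 75 bases before the start, and 4 CpG. Over the 34 genes the number of CpG ran from 1, for Slc25a34, to 51, for Slc25a15, with a median of 18.5, against 8 for all 27025 genes with a window. A GC box was found for 29 of the 34 genes (38.2% of all genes), a CCAAT box for 18 (41.1%), an E-box for 7 (8.09%) and a TATA box for 2 (15.7%), where a gene with several windows counts if any of them holds the motif. The NRF1 site was found for 2 genes (5.19% of all), the cyclic AMP response element for 2 (2.03%), the ETS site for 1 (4.31%) and the ERR half-site for 1 (5.38%). These matches describe the letters of the windows and not binding. The 34 genes had 43 windows, and the RPKM rows are on another build (mm9). Whether a start site shown here is that of the transcript measured was not tested.

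**Figure D2:**
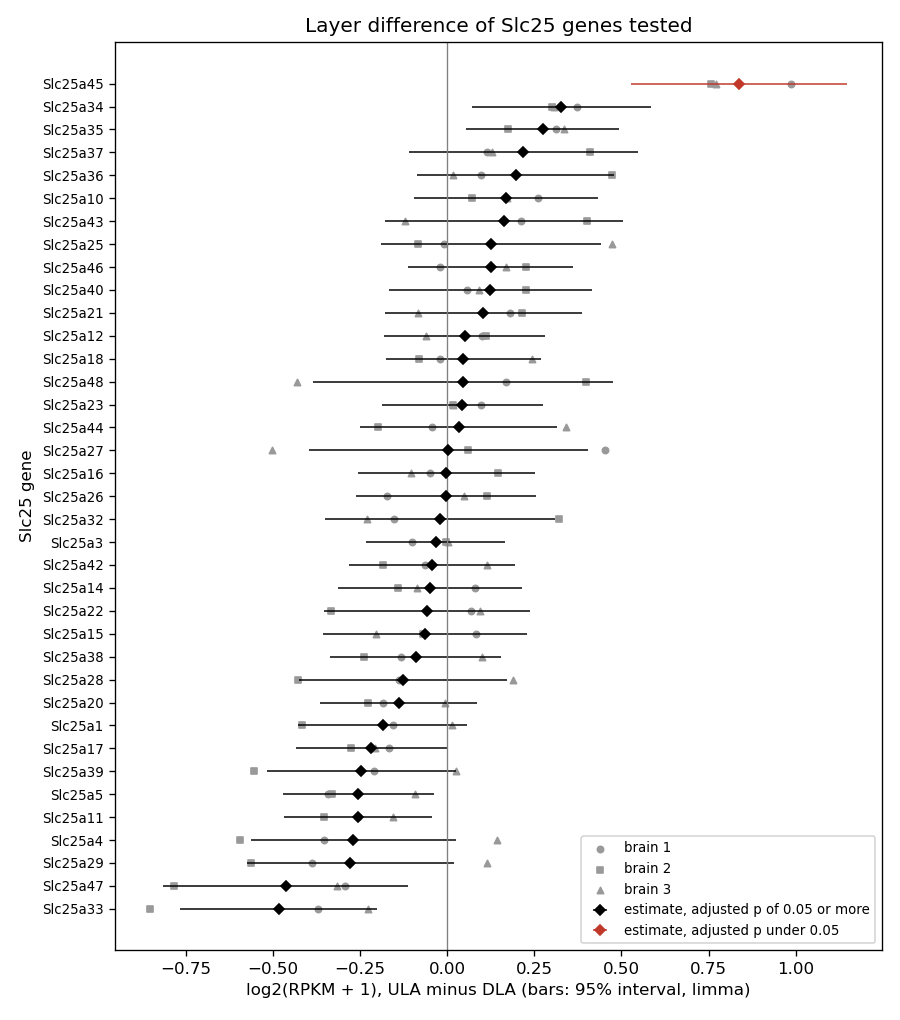
Difference between ULAs and DLAs in log2(RPKM + 1) for the Slc25 genes tested and reported by name, with the limma estimate and its 95% interval (diamond and bar) and the difference in each brain (grey symbols). Slc25a45, in red, passed at an estimate of 0.84, and the other estimates lie between −0.48 (Slc25a33) and 0.33 (Slc25a34).

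Slc25a45, grouped by its family branch with amino acid and carnitine carriers, had 4.75, 5.74 and 4.94 RPKM in ULAs and 1.90, 2.99 and 2.48 in DLAs. All ULA values lay above all DLA values, as in 6.59% of all rows tested, and the ULA/DLA ratio was 2.14 ± 0.316 (SD of 3 brains). The log2 difference was 0.84 (SE 0.14, adjusted p = 0.0155, limma), with the ULAs higher in 3 of 3 brains. The gene has 6 exons on chromosome 19 from 5878466 to 5885768 (mm9), no other row overlaps its exons, and its values rest on 213 to 270 reads in ULA libraries and on 93 to 135 reads in DLA libraries. The call was lost when the brain term was dropped (adjusted p = 0.103), when brain 1 was left out (0.0563) and when genes at low RPKM were kept in (0.339), and the adjusted p ran from 0.00179 to 0.339 over 10 alternatives. In bulk RNA of sorted cells, a lower level cannot be told apart from fewer expressing cells.

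Other carriers for amino acids did not pass. Slc25a18, a glutamate carrier counted among astrocyte-enriched genes, was at 414.91, 532.72 and 457.95 RPKM in ULAs and at 421.14, 564.01 and 387.00 in DLAs, and both layers were highest in brain 2. Its log2 difference was 0.05, with an interval from −0.18 to 0.27 (adjusted p = 0.856, limma). The other glutamate carrier, Slc25a22, was at 10.28, 8.37 and 8.96 RPKM in ULAs and 9.77, 10.82 and 8.34 in DLAs. Slc25a18 exceeded it 40.4-fold to 63.6-fold in every library, with a mean of 51.7 ± 11.7 for ULAs and 47.2 ± 4.56 for DLAs. Between Slc25a18 and Slc25a22, the mRNA in these astrocytes was thus nearly all Slc25a18 in both layers. The aspartate/glutamate carrier Slc25a12, at a mean of 30.1 RPKM, is not in this comparison and is given below.

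The ornithine carrier Slc25a15 was at 6.34, 4.72 and 5.41 RPKM in ULAs and at 5.93, 5.0 and 6.39 in DLAs, while its paralog Slc25a2 was at 0.05, 0 and 0 in ULAs and 0.13, 0.03 and 0.07 in DLAs. Slc25a29, a carrier of basic amino acids, was at 38.69, 39.82 and 42.44 RPKM in ULAs and at 50.92, 59.28 and 39.18 in DLAs. It was higher in the DLAs of brains 1 and 2 and lower in those of brain 3, its log2 difference was −0.28 (adjusted p = 0.333, limma), and it passed without brain 3 at −0.47 (adjusted p = 0.0154) but was −0.14 without brain 2 (adjusted p = 0.716). Without brain 3 a total of 3 Slc25 genes passed as lower in ULAs, these being Slc25a4, Slc25a29 and Slc25a33, as did 4.91% of all rows, and Slc25a45 remained higher, as did 3.04% of all rows.
The glycine carrier Slc25a38 averaged 31.9 ± 1.31 RPKM in ULAs and 34.1 ± 2.82 in DLAs, and Slc25a44, which carries branched-chain amino acids, 23.2 ± 1.41 and 22.8 ± 3.87. The carnitine carrier Slc25a20 was at 46.76, 50.32 and 59.71 RPKM in ULAs and 53.32, 59.11 and 59.97 in DLAs (log2 difference −0.14, adjusted p = 0.522). Slc25a47 was higher in all DLA libraries, at 3.35, 4.27 and 2.56 RPKM against 2.55, 2.06 and 1.86 in ULAs, although the lowest DLA value and the highest ULA value were nearly equal. Its log2 difference of −0.46 (SE 0.16) did not pass (adjusted p = 0.191), and its values rest on 79 to 141 reads. Slc25a48 was near 1 RPKM, at 1.16 ± 0.665 in ULAs and 1.02 ± 0.111 in DLAs. Of the 11 genes in this group 10 were tested, 4 above 0 and 6 below 0, with Slc25a45 as the gene that passed.

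**Figure D3:**
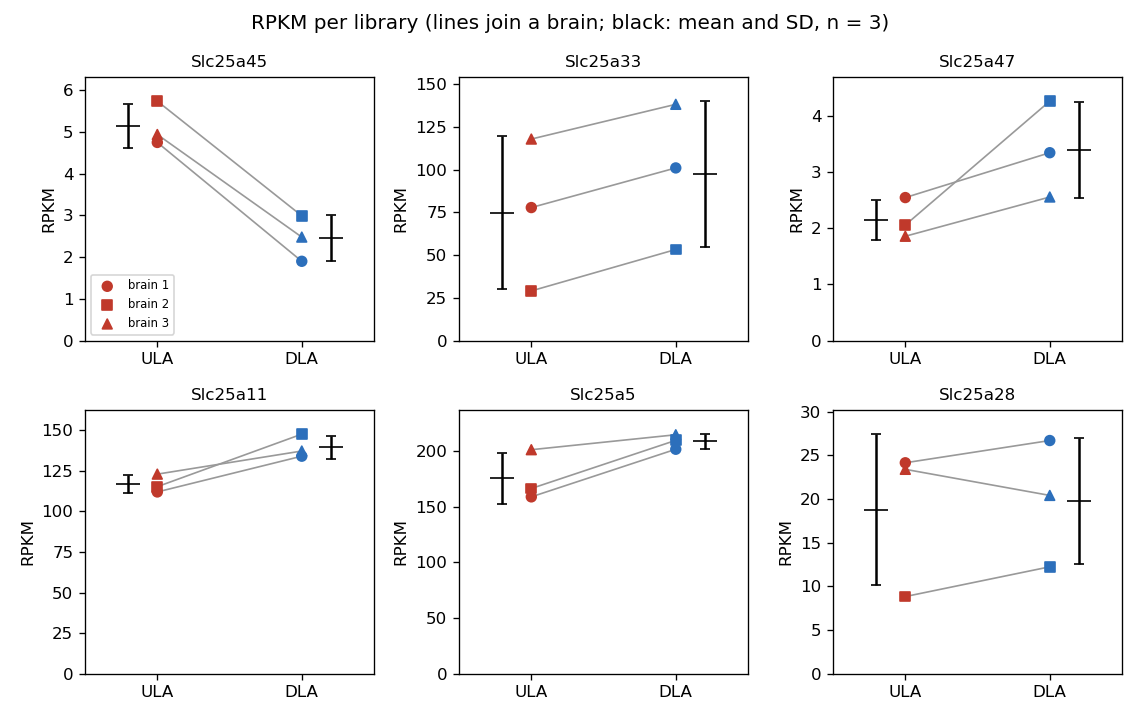
RPKM of 6 Slc25 genes in the ULA (red) and DLA (blue) library of each brain, joined by a line, with the mean and SD of 3 libraries in black. Slc25a45 is lower in the DLA library of every brain, with means of 5.14 and 2.46, while Slc25a33 and Slc25a28 are separated mainly by brain, with brain 2 lowest in both layers.

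None of the carriers of the malate-aspartate shuttle and of carboxylates passed between layers. Slc25a11, which exchanges 2-oxoglutarate for malate, was at 112.05, 115.30 and 123.04 RPKM in ULAs and at 134.11, 147.72 and 137.30 in DLAs. The layers did not overlap, with DLAs higher in 3 of 3 brains, but the log2 difference of −0.26 (SE 0.09) did not pass (adjusted p = 0.223, limma, with a range of 0.109 to 0.875 over the alternatives). In total 3 of the 38 genes, Slc25a5, Slc25a11 and Slc25a47, were higher in all DLA than in all ULA libraries, as were 9.27% of all rows. Slc25a12, the aspartate/glutamate carrier aralar, was at 30.53, 31.59 and 29.85 RPKM in ULAs and at 28.41, 29.20 and 31.21 in DLAs. Its paralog Slc25a13 (citrin) was at 0.23, 0.09 and 0.31 RPKM in ULAs and 0.15, 0.06 and 0.11 in DLAs, on 4 to 26 reads, so that aralar was the main form in each library.

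The citrate carrier Slc25a1 was at 74.41, 72.98 and 90.23 RPKM in ULAs and at 82.94, 97.71 and 89.43 in DLAs, and these ranges overlapped (log2 difference −0.19, adjusted p = 0.428). Its difference was −0.29 without brain 3, −0.07 without brain 2 and −0.09 with the length trend described below subtracted. It passed in none of these fits. The dicarboxylate carrier Slc25a10 averaged 10.7 ± 0.594 RPKM in ULAs and 9.40 ± 0.776 in DLAs, and the oxodicarboxylate carrier Slc25a21 averaged 8.44 ± 0.501 and 7.83 ± 1.26. Of the 5 genes of this group tested 3 were above 0, 2 were below 0 and 0 passed.

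Iron and glutathione carriers had a major and a minor form each. Slc25a28 (mitoferrin 2), which brings iron into mitochondria, was at 24.15, 8.82 and 23.40 RPKM in ULAs and at 26.70, 12.23 and 20.41 in DLAs. Brain 2 was lowest in both layers, as for Slc25a33, and the gene passed the F test between brains (adjusted p = 0.00704, limma) but not the test between layers (log2 difference −0.13, adjusted p = 0.68). The peroxisomal carrier Slc25a17 also passed the F test (adjusted p = 0.0341), so that 3 of the 38 genes passed it, against 2.85% of all rows. It was highest in brain 3 and lowest in brain 1 in both layers, at 38.86, 42.04 and 60.97 RPKM in ULAs and 43.80, 51.14 and 70.62 in DLAs, and was higher in DLAs in 3 of 3 brains (log2 difference −0.22, adjusted p = 0.305). Slc25a37 (mitoferrin 1) was at 2.96, 2.72 and 3.08 RPKM in ULAs and at 2.66, 1.8 and 2.73 in DLAs (log2 difference 0.22, adjusted p = 0.493). Slc25a39, which carries glutathione, was at 53.98, 49.52 and 61.31 RPKM in ULAs and 62.57, 73.27 and 60.22 in DLAs (log2 difference −0.25, adjusted p = 0.348). Its difference was −0.38 without brain 3 (adjusted p = 0.0546, limma) and −0.09 without brain 2 (adjusted p = 0.77). Its paralog Slc25a40 was at 5.30, 5.66 and 4.60 RPKM in ULAs and 5.06, 4.70 and 4.26 in DLAs.

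Carriers named for their likeness to uncoupling proteins were expressed at low to moderate levels. Slc25a14 was at 10.59, 9.60 and 10.84 RPKM in ULAs and 9.96, 10.70 and 11.57 in DLAs, and Slc25a27 at 5.23, 4.57 and 4.01 in ULAs and 3.55, 4.35 and 6.10 in DLAs. Slc25a30 was at 0.49, 0.33 and 0.39 RPKM in ULAs and 0.24, 0.23 and 0.70 in DLAs and was not tested. The layers overlapped for these genes, and neither Slc25a14 (log2 difference −0.05, adjusted p = 0.875) nor Slc25a27 (0.0028, adjusted p = 0.995) passed.
Slc25a34 and Slc25a35, a pair of related carriers, were higher in ULAs in 3 of 3 brains. Slc25a34 was at 15.41, 11.14 and 10.16 RPKM in ULAs and 11.67, 8.85 and 8.02 in DLAs, and Slc25a35 at 67.96, 57.56 and 54.34 in ULAs and 54.51, 50.87 and 42.90 in DLAs. Slc25a46, an outer membrane protein, averaged 33.9 ± 3.23 RPKM in ULAs and 30.9 ± 1.83 in DLAs. The layers of Slc25a34 and Slc25a35 overlapped across brains, and their log2 differences, 0.33 (SE 0.12, adjusted p = 0.202, limma) and 0.27 (SE 0.10, adjusted p = 0.211), did not pass. Higher values in the ULAs of 3 of 3 brains were found for 8 of the 38 genes and 15.2% of all rows, and lower values for 6 of the 38 and 23.2% of all rows.

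The difference between layers went with mRNA length, in the Slc25 genes as in the table at large. Spearman's rho between the log2 difference and the mRNA length was 0.42 over the 38 genes and 0.34 over all rows, where genes share libraries and are not independent. Over all rows it was 0.21 in brain 1, 0.37 in brain 2 and 0.10 in brain 3, so that the trend was weakest in brain 3. Of the 20 Slc25 genes with an mRNA under 2000 bases, 15 had a difference below 0, with a median of −0.13, against −0.12 for all rows of such length. Of the 18 longer ones 6 were below 0, with a median of 0.05 against 0.02 for all longer rows. With the length trend of each brain subtracted, the difference moved from −0.26 to −0.14 for Slc25a5, from −0.27 to −0.15 for Slc25a4 and from −0.26 to −0.17 for Slc25a11. That of Slc25a45, whose mRNA has 1833 bases, moved from 0.84 to 0.93 and still passed (adjusted p = 0.0201, limma).

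**Figure D4:**
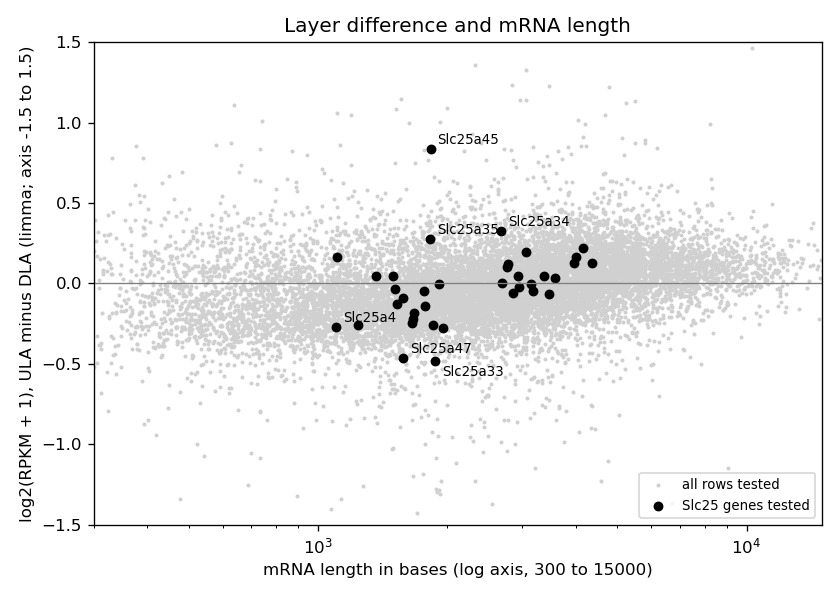
Difference between ULAs and DLAs in log2(RPKM + 1) against mRNA length on a log axis, for the Slc25 genes tested and reported by name (black) and all rows tested (grey; a few lie outside the axes). The short Slc25 mRNAs lie mostly below 0 with the grey points, and Slc25a45 stands above its neighbours in length.

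Genes that work with these carriers were examined as 9 lists, in which 40 of the 44 genes present in the table were tested. In the limma test 0 passed in either direction, and at an unadjusted p under 0.05, 1 was higher in ULAs and 7 were lower. Over all rows 1.63% passed, and 5.64% and 10.8% were higher and lower at the unadjusted threshold. Among carriers under other names, Ucp2 (uncoupling protein) averaged 1.56 ± 0.325 RPKM in the ULAs and 3.15 ± 0.340 in the DLAs, without overlap, and its log2 difference of −0.70 had an adjusted p of 0.0737. Ucp3 was at 21.5 ± 2.51 and 27.4 ± 4.12 RPKM (log2 difference −0.33, adjusted p = 0.163), and Ucp1 was listed at 0 in all 6 libraries. Mtch1, an outer membrane member of the family, was at 5.77, 3.80 and 7.02 RPKM in ULAs and 30.76, 4.79 and 19.45 in DLAs. Its difference, −1.28 with an adjusted p of 0.057, was wide in brains 1 and 3 and small in brain 2. Mtch1 passed as lower in ULAs in each fit with a brain left out, and Ucp2 without brain 1 or without brain 3. These fits rest on fewer pairs than the fit with all brains, in which neither gene passed. In the 9 lists 2, 2 and 4 genes passed as lower without brain 1, 2 and 3. Of all rows 126, 182 and 687 did so, against 128 with all brains. Mtch2, Mcart1 and Mcart6 had differences of −0.06, −0.02 and −0.18, so that all 6 genes tested in this list were below 0 and 0 passed.

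The malate dehydrogenases of the malate-aspartate shuttle were the most abundant partner enzymes. Mdh1, the cytosolic form, was at 307.7 ± 44.4 RPKM in ULAs and 367.6 ± 24.1 in DLAs, and the mitochondrial Mdh2 at 225.5 ± 26.97 and 282.1 ± 25.2, with log2 differences of −0.26 and −0.32 (adjusted p = 0.238 and 0.162, limma). The aminotransferases Got1 and Got2 had differences of −0.22 and −0.03, and the glycerol phosphate dehydrogenases Gpd1 and Gpd2 of 0.21 and 0.05. Of the pyruvate carrier subunits, Mpc1 was at 71.0 ± 3.75 and 69.8 ± 2.50 RPKM and Mpc2 at 82.1 ± 5.63 and 97.7 ± 6.34, where the Mpc2 values of the layers did not overlap (log2 difference −0.25, adjusted p = 0.233). Oat, the ornithine aminotransferase, was at 144.9 ± 14.7 and 172.9 ± 16.9 RPKM (log2 difference −0.25, adjusted p = 0.26).

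Among carnitine enzymes, Cpt1c was the gene higher in ULAs at an unadjusted p under 0.05, at 24.02 ± 4.16 RPKM against 17.9 ± 0.595 (log2 difference 0.39, adjusted p = 0.152). Cpt1a, the liver-type form of the enzyme that loads fatty acids onto carnitine, had a difference of 0.21, Cpt2 of −0.17 and Crat of −0.14, and Cpt1b was under 1 RPKM. The porins Vdac1, Vdac2 and Vdac3, channels of the outer membrane, had differences of −0.02, −0.17 and −0.10. The sideroflexins Sfxn1, Sfxn2, Sfxn3, Sfxn4 and Sfxn5, of which Sfxn1 carries serine, had 0.01, −0.05, −0.09, −0.26 and −0.08. The transporters Abcb6, Abcb8 and Abcb10 had 0.22, −0.01 and −0.04. For the calcium uniporter and its regulators 5 genes were tested, 3 above 0 and 2 below 0, and the enzymes of glutamate and ornithine metabolism had the same counts.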

How the data were processed

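The authors deposited RPKM values, with 2 decimals, for each library, and the mRNA length of each row. The submitters' processing notes name bcl2fastq 1.8.4, CASAVA 1.8.2 and the build mm9, and the aligner and counter are not given in the sources used here. Starts were counted from 1. Depth was estimated from the increments of RPKM in short rows (500 bases or less, RPKM above 0 and under 20). A value counted as whole only if a whole number of reads gave exactly its hundredths. This held for 100% of the values that could be read to hundredths (99.946% to 100% of the values of a library), against at most 87.6% at other depths, multiples of the chosen depth aside. RPKM was the unit tested, and read numbers give precision only. The brain was taken from the replicate number, since the study tested pairs over 3 brains and same-numbered libraries deviated together (r across genes of 0.42, 0.33 and 0.34). limma 3.58.1 in R 4.3.3 (lmFit, eBayes with trend) gave 2-sided p-values, adjusted over 13999 rows. The fit was tested on simulated data, and the outcome of that test is not given here. An exact permutation test cannot go below 0.25 with these pairs. Python 3.11.15, pandas 2.3.3, numpy 2.4.6, scipy 1.17.1 and matplotlib 3.10.9 were used. The genes, lists and tests were chosen with earlier results of these data known. 1 Slc25 gene and 1 related gene are not reported here by name or drawn, but stay in the counts, medians and sums. Values per library are given for Slc25 genes at an unadjusted p under 0.05, the 10 most abundant and members of functional pairs. They are also given for Slc25a29, which passed without brain 3. Related genes other than Mtch1 and Ucp1 are given as means or differences. Alternatives left out the brain term, the filter or the variance trend, used 0.1 as the pseudocount, raised the minimum mean RPKM to 5, or applied median centring, quantile normalization or a length correction (loess, span 0.5, per brain), and each brain was left out in turn. The F test between brains, the motifs and the alternatives for related genes were added after the data were seen.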

Additional observations from a re-analysis of the deposited data

How the results depend on the processing

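Slc25a45 was the 1 Slc25 gene called higher in ULAs in 7 of 11 alternative settings and the direction was kept in the 10 settings that tested it. The number was 0 in the unpaired model (no brain term), 0 with no filter on low RPKM and 0 with a mean RPKM of at least 5, where its mean of 3.80 RPKM kept it out of the test. At an unadjusted p under 0.05 (limma) these 3 settings had 1, 3 and 2 Slc25 genes higher in ULAs and 2, 7 and 3 lower. Without the brain term 529 and 880 of all 13999 rows were higher and lower at this threshold. With a mean RPKM of at least 5 they were 510 and 1212 of 8911. With 1 brain left out in turn, 0 to 1 Slc25 genes were called higher and 0 to 3 lower. Over all rows, the numbers higher and lower in ULAs were 100 and 128 in the paired model, 23 and 18 without the brain term, 0 and 0 with no filter (1124 and 1675 at an unadjusted p under 0.05), 65 and 79 with no variance trend, and 77 and 77 with the length correction. With 1 brain left out they ran from 104 to 426 and from 126 to 687. Quantile normalization turned the balance, with 138 and 103. The difference of Slc25a3 changed sign to 0.074 under quantile normalization and 0.070 with the length correction, and that of Slc25a18 ran from −0.052 (without brain 3) to 0.11 with 1 brain left out. The median over Slc25 genes stayed between −0.05 and 0.03. Of the genes in the 9 related lists, none was called higher in any setting and 0 to 4 were called lower, 1 with a mean RPKM of at least 5 and 1 with median centring (Mtch1 both times), and 2 to 4 with 1 brain left out. The causes were not tested. At a given RPKM, the fewest reads stand behind a value in the DLAs of brain 2, where depth was lowest. Read numbers also follow the level, and those of Slc25a45 were lowest in the DLAs of brain 1 (93, against 108 in the DLAs of brain 2).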
